A study of Rattus norvegicus with 4 samples.

Results

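The 10 genes described here are the Notch receptors Notch1 to Notch4, the Notch ligands Jag1, Jag2, Dll1 and Dll4, and the Notch target genes Hes1 and Hey1. They were taken by gene symbol from a table of 24005 genes, and all 10 were found there. RNA came from cartilage of male Sprague Dawley rats, whose labels give an age of 8 to 12 weeks and a weight of 140 to 230 g. The osteoarthritis group held 2 libraries, labelled osteoarthritis for disease state and XGS for treatment. XGS stands for Xiaogu San, a herbal preparation. By the title and design text the disease was induced with monosodium iodoacetate, which blocks glycolysis and is used to injure joint cartilage. The control group held 2 libraries, labelled healthy and control. No library is labelled as osteoarthritis without XGS, so disease and preparation cannot be told apart. The design text calls the normal animals mice, whereas every sample label says rat. A species difference between the groups was not tested. The labels do not say whether the libraries of a group came from separate animals, so the p-values measure only the spread between these libraries, which may be technical.

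Notch receptors span the cell membrane and are bound by Jagged (Jag) or Delta-like (Dll) ligands on a neighbouring cell. Binding exposes the receptor to cleavage, first by an ADAM protease and then by gamma-secretase, and the freed intracellular part enters the nucleus. There it joins the DNA-binding protein RBPJ and a Mastermind coactivator and switches on genes of the Hes and Hey families, which encode transcriptional repressors. In skeletal development the pathway restrains chondrocyte differentiation, and it is also used widely in blood vessels, where Dll4 and Notch4 are typical of endothelium and Notch3 of smooth muscle cells and pericytes.

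RBPJ recognises the core TGGGAA. The stretches below are the 250 bases before the annotated gene start from RefSeq (build GRCr8), given for Hes1, Dll1 and Notch4, whose stretches hold that core on either strand, and for Jag1, which had the largest fold change of the 10. Letters in capitals mark TGGGAA or, where the core lies on the opposite strand, TTCCCA.
Hes1 (chr11:84213046-84213295, minus strand): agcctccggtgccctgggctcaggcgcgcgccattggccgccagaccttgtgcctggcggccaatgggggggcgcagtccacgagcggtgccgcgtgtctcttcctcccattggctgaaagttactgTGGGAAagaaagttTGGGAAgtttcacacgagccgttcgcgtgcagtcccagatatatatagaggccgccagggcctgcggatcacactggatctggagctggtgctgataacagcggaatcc
Dll1 (chr1:64993275-64993524, minus strand): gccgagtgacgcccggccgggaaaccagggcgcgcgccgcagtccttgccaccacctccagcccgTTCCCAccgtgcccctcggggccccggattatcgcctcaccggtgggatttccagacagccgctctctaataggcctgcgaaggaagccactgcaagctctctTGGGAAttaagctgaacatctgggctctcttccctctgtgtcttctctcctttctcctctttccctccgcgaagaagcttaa
Notch4 (chr20:4189073-4189322, minus strand): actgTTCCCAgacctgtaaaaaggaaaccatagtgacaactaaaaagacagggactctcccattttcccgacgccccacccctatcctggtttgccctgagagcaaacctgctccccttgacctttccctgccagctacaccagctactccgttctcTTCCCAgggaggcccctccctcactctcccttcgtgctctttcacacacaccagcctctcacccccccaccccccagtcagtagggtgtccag
Jag1 (chr3:144894884-144895133, minus strand): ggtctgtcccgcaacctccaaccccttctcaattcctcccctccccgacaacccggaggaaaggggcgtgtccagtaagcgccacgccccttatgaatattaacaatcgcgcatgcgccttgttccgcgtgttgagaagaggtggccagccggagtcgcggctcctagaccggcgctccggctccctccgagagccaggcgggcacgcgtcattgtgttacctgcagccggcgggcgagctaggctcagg

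In Hes1 the 2 matches began 123 and 109 bases before the gene start, on the same strand, and the first was preceded by a G, which gives the longer form GTGGGAA. In Dll1 they began 185 and 82 bases before the start, on opposite strands, and in Notch4 246 and 93 bases before it, both on the opposite strand. RefSeq windows were matched for 8 of the 10 genes, with Hey1 and Dll4 unmatched. Of these 8, 3 (37.5%) held the core, against 23.2% of 27457 genes with a window of the same length. The same 3 genes held it at least 2 times, as did 2.92% of all genes. GTGGGAA, which contains the core, was found in 2 of the 8 windows and in 5.67% of all. Among 44 other Notch pathway genes with a window, 34.1% held the core, 11.4% held it at least 2 times and 13.6% held GTGGGAA. These matches are descriptions of sequence and say nothing of binding in these samples. The 3 genes with matches differed in their values, which follow: Notch4 lay higher in osteoarthritis, and Hes1 and Dll1 overlapped between the groups.

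Library totals were 24492412 and 25994449 counts in osteoarthritis and 28156020 and 28270779 counts in control. The label cartilage was checked with 12 chondrocyte markers, all of which were detected in both groups. Their summed level was 4131 and 8198 CPM, the count scaled to a common library size, in osteoarthritis and 24531 and 35898 CPM in control. Of the 12, 8 lay below both controls, beside 26.5% of all genes tested. Markers of other tissues were present at differing levels. The summed level of 8 erythroid markers was 449.3 and 1195 CPM in osteoarthritis and 36882 and 31765 CPM in control. That of 8 adipocyte markers was 9015 and 109.6 CPM in osteoarthritis and 1714 and 664.7 CPM in control. That of 6 tendon and ligament markers was 352.4 and 7522 CPM in osteoarthritis and 2471 and 2469 CPM in control. Schwann cell markers (6) summed to 955.3 and 466.4 CPM in osteoarthritis and 378.8 and 358.3 CPM in control. This sum was higher in both osteoarthritis libraries, but of the 6 markers only 1 lay above both controls, beside 30.0% of all genes tested. Sums lower in both osteoarthritis libraries included those of osteoblast markers (68.41 and 357.2 CPM in osteoarthritis, 1371 and 5603 CPM in control) and neutrophil and precursor markers (97.75 and 546.6 CPM in osteoarthritis, 6846 and 10787 CPM in control). They also included B cell markers (17.26 and 30.12 CPM in osteoarthritis, 396.6 and 565.9 CPM in control) and macrophage markers (864.3 and 1421 CPM in osteoarthritis, 5346 and 7698 CPM in control). Osteoarthritis replicate 1 thus held the most adipocyte signal and osteoarthritis replicate 2 the most tendon signal. The part of these tissues in the results below was not tested. Values relative to vessel markers, given further on, are a description and not a test of it. In bulk tissue, a different number of cells of a type and a different RNA level per cell cannot be told apart.

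Of the 10 Notch genes, 5 had CPM values in both osteoarthritis libraries above both controls: the receptors Notch1, Notch3 and Notch4 and the ligands Jag1 and Dll4. None lay below both, and the other 5 overlapped. Among the 15282 genes tested, 30.0% lay above both controls and 26.5% below both. All 10 Notch genes passed the filter on low counts. Their log2 fold changes, osteoarthritis over control, were positive for 9 of 10, all but Dll1, with a median of 1.20, beside 55.1% positive and a median of 0.15 over all genes tested; without TMM factors Dll1 turned positive too. The median of all genes was then 0.27, and that of the 10 genes exceeded it by 1.07, against 1.05 with TMM factors. By the quasi-likelihood test of edgeR, with p-values adjusted over all genes by the Benjamini-Hochberg method, 0 of the 10 passed a threshold of 0.05, and 0.0% of all genes passed in either direction. At an unadjusted p under 0.05 the same 5 genes were higher, against 12.2% of all genes. DESeq2 called 4 of the 10 higher (Notch3, Notch4, Jag1 and Dll4), where it called 7.24% of all genes higher. The edgeR likelihood ratio test called 3 (Notch4, Jag1 and Dll4), where it called 6.31%, and limma-voom called 0, as it did over all genes. Because the quasi-likelihood test called no gene, differences below are given as levels and whether the libraries overlap. Without osteoarthritis replicate 1 that test called 5 of the 10 higher and 0 lower, beside 8.16% of all genes higher and 6.95% lower. Without osteoarthritis replicate 2 it also called 5 higher and 0 lower, beside 4.88% of all genes higher and 5.73% lower. These fits take the lone osteoarthritis library to have the spread of the controls. They also share libraries with the DESeq2 fit, so they are no separate support for its calls. Of these fits, Notch2 was called only without osteoarthritis replicate 1, and Notch1 only without osteoarthritis replicate 2. Leaving out either control gave 0 calls. With no filter on low counts it called 3 of the 10 (Notch4, Jag1 and Dll4) higher and 0 lower, beside 3.35% of all genes higher and 3.72% lower.

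**Figure D1:**
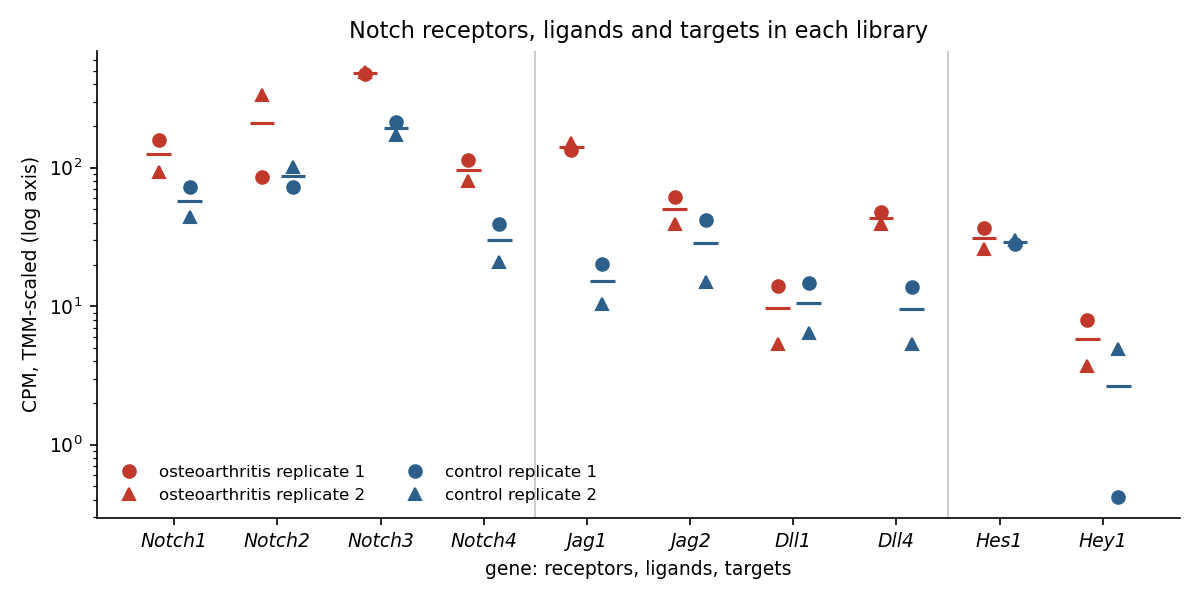
CPM with TMM-scaled library sizes (log axis) of the 10 genes in each library; circles are replicate 1, triangles replicate 2 and bars group means. The osteoarthritis libraries of Jag1 (134 and 150 CPM) stand above its controls (20.3 and 10.3 CPM), while those of Hes1 (36.8 and 25.8 CPM) lie on either side of its controls (28.2 and 30.1 CPM).

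Notch3, the receptor of mural cells of vessels, had 474 and 491 CPM in osteoarthritis and 215 and 172 CPM in control. The osteoarthritis libraries lay close together and above both controls. The means were 482 ± 12.1 CPM in osteoarthritis and 193 ± 30.2 CPM in control (SD, n = 2 each), which gave 1.32 ± 0.38 as the log2 fold change (SE; edgeR adjusted p = 0.145, DESeq2 adjusted p = 0.00334). Notch4, a receptor found mainly in endothelium, had 113 and 80.4 CPM in osteoarthritis and 39.3 and 20.8 CPM in control. Its libraries did not overlap either, and its value of 1.69 ± 0.44 on the log2 scale was the highest among the receptors (edgeR adjusted p = 0.127, DESeq2 adjusted p = 0.0126). Notch1, the receptor used in many tissues including T cell development, had 159 and 92.7 CPM in osteoarthritis and 72.1 and 43.8 CPM in control. The groups were apart, but the lower osteoarthritis library lay nearer to the higher control than to the other osteoarthritis library. Its log2 fold change was 1.12 ± 0.44 (edgeR adjusted p = 0.214, DESeq2 adjusted p = 0.132). Without osteoarthritis replicate 1 it was 0.66.

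Notch2, a receptor that also takes part in bone and B cell biology, had 85.1 and 334 CPM in osteoarthritis and 72.8 and 102 CPM in control. Osteoarthritis replicate 2 was far higher, and the other osteoarthritis library lay between the controls at these TMM-scaled sizes. In FPKM, counts scaled by gene length and library total, both osteoarthritis libraries lay above both controls. The values were 9.55 and 27.8 FPKM in osteoarthritis and 6.85 and 8.76 FPKM in control. The log2 fold change of 1.26 ± 0.69 (edgeR adjusted p = 0.333) rested on that library, since it was -0.03 without it and 1.90 without osteoarthritis replicate 1. Osteoarthritis replicate 2 was also the library with the highest summed tendon and ligament markers, and the part of that tissue in the Notch2 value was not tested.

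Jag1, the Jagged ligand expressed in vessels, cartilage and many other tissues, showed the largest fold change of the 10 genes. It had 134 and 150 CPM in osteoarthritis and 20.3 and 10.3 CPM in control, from 3960 and 3467 counts in osteoarthritis and 576 and 269 counts in control. Both osteoarthritis libraries exceeded the higher control several times over. The means were 142 ± 11 CPM in osteoarthritis and 15.3 ± 7.04 CPM in control (SD, n = 2 each), a fitted 9.28-fold difference, or 3.21 ± 0.45 on the log2 scale (edgeR adjusted p = 0.0824, DESeq2 adjusted p = 1.37e-08). Without any single library its log2 fold change stayed between 2.82 and 3.73.

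Dll4, the Delta-like ligand of sprouting vessels, had 47.7 and 39.4 CPM in osteoarthritis and 13.7 and 5.37 CPM in control. Its groups were apart, with means of 43.5 ± 5.85 CPM in osteoarthritis and 9.53 ± 5.88 CPM in control (SD, n = 2 each) and a difference of 2.19 ± 0.54 on the log2 scale (edgeR adjusted p = 0.119, DESeq2 adjusted p = 0.00601). Jag2, the other Jagged ligand, had 61.3 and 38.9 CPM in osteoarthritis and 41.9 and 14.9 CPM in control. The lower osteoarthritis library lay just under the higher control, and the log2 fold change was 0.82 ± 0.57 (edgeR adjusted p = 0.445). It was 1.70 without control replicate 1 and 0.27 without control replicate 2. Dll1, a Delta-like ligand of early development, had 14.1 and 5.32 CPM in osteoarthritis and 14.6 and 6.41 CPM in control. Each group had a higher and a lower library at much the same levels, and the log2 fold change was -0.11 ± 0.73 (edgeR adjusted p = 0.953). It took either sign when single libraries were left out, between -1.0 and 0.56, and came to 0.08 without TMM factors.

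**Figure D2:**
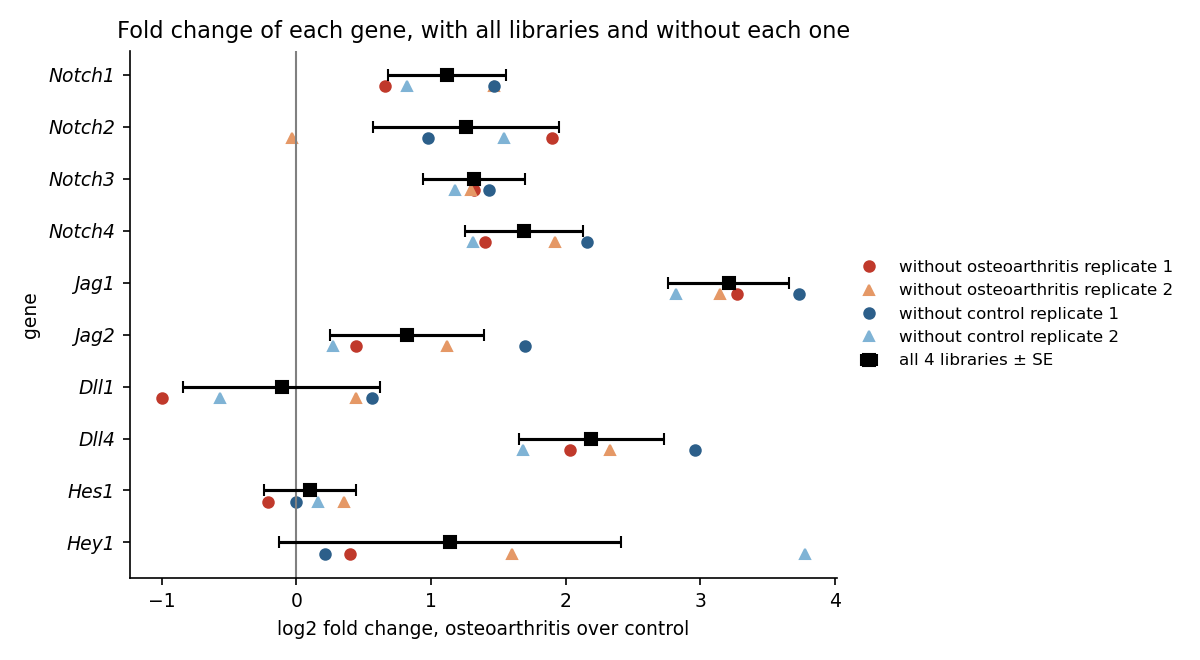
Log2 fold change, osteoarthritis over control, of the 10 genes with all libraries (squares, bars are SE) and without each library in turn (coloured symbols). Jag1, Dll4, Notch4, Notch3 and Notch1 stay right of 0 in all of these fits, as do Jag2 and Hey1, whose groups overlap in CPM. Notch2 drops to -0.03 without osteoarthritis replicate 2, and Dll1 and Hes1 lie on both sides of 0.

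Levels of different genes were compared as FPKM, counts scaled by gene length and library total, which takes account of gene length. Among receptors Notch3 had the highest FPKM in every library, with 78.0 and 59.7 FPKM in osteoarthritis and 29.6 and 21.7 FPKM in control. It made up 59.6% and 55.1% of the summed FPKM of the 4 receptors in osteoarthritis and 58.2% and 57.1% in control, so its share differed little between libraries while its level differed. The order of the other receptors differed between libraries. The Notch1 to Notch4 FPKM ratio was 0.890 and 0.728 in osteoarthritis and 1.16 and 1.33 in control, so Notch4 stood above Notch1 in both osteoarthritis libraries and below it in both controls. Notch2 held 7.30% and 25.6% of the sum in osteoarthritis and 13.5% and 23.1% in control. Notch4 held 17.5% and 11.1% in osteoarthritis and 13.1% and 8.52% in control, and Notch1 15.6% and 8.10% in osteoarthritis and 15.2% and 11.3% in control. Each receptor's share of the sum overlapped between the groups, and those of Notch1, Notch2 and Notch4 overlapped with each other.

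Among the ligands, Jag1 held 46.0% and 58.7% of the summed ligand FPKM in osteoarthritis and 18.0% and 22.4% in control. Jag2 held 24.5% and 17.8% in osteoarthritis and 43.4% and 37.8% in control. The leading ligand was therefore Jag1 in both osteoarthritis libraries and Jag2 in both controls, with a Jag1 to Jag2 FPKM ratio of 1.88 and 3.30 in osteoarthritis and 0.415 and 0.593 in control. Dll1 held 8.68% and 3.73% in osteoarthritis and 23.2% and 24.9% in control, although its own level overlapped between the groups. Dll4 held 20.9% and 19.7% in osteoarthritis and 15.5% and 14.9% in control. The shares of all 4 ligands were thus apart between the groups, with Jag1 and Dll4 larger and Jag2 and Dll1 smaller in osteoarthritis. These shares sum to a fixed total, so they are not independent of each other, and with 2 libraries a group an exact two-sided permutation test cannot go below p = 0.333, so none was made.

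**Figure D3:**
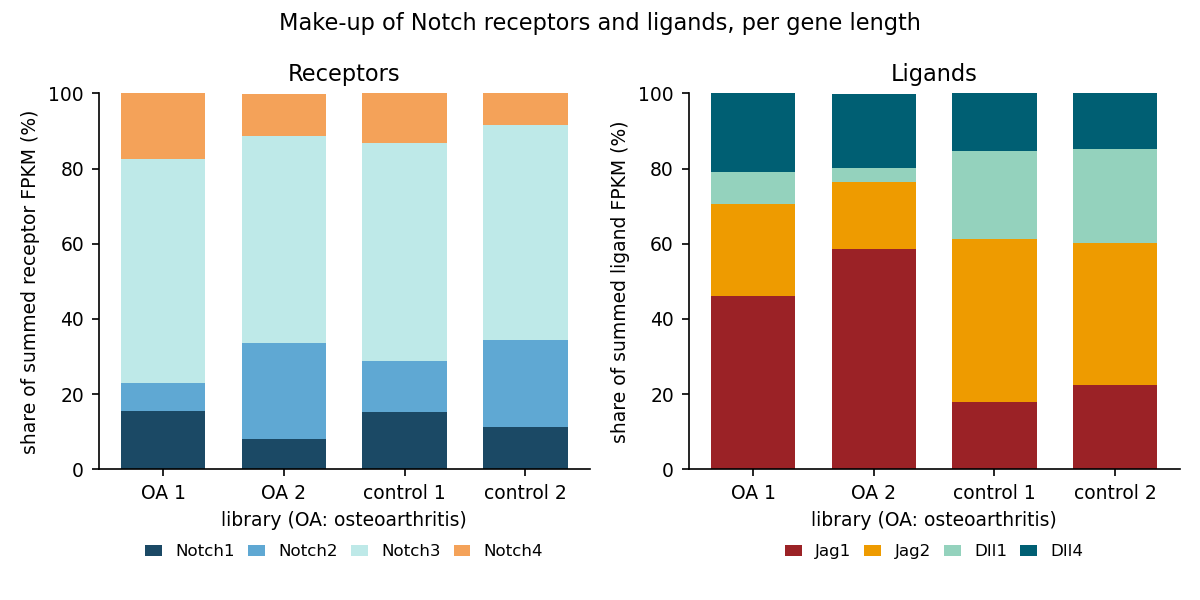
Share of each gene in the summed FPKM of the 4 receptors (left) and the 4 ligands (right), in percent, for each library. Notch3 fills 55.1% to 59.6% of the receptor sum in all libraries, while the Jag1 share is 46.0% and 58.7% in osteoarthritis and 18.0% and 22.4% in control.

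Both target genes overlapped between the groups. Hes1, a repressor that is a direct target of Notch and also of other signals, had 36.8 and 25.8 CPM in osteoarthritis and 28.2 and 30.1 CPM in control. The controls lay between the osteoarthritis libraries. The log2 fold change was 0.10 ± 0.34 (edgeR adjusted p = 0.897), and it was between -0.21 and 0.35 when single libraries were left out. Hey1, a related repressor used in vessels and bone, had 7.97 and 3.67 CPM in osteoarthritis and 0.422 and 4.87 CPM in control. Control replicate 1 stood apart from the other 3 libraries with 12 counts (95% exact Poisson interval 6.20 to 21.0, counting error only), and the other control lay between the osteoarthritis libraries. The log2 fold change of 1.14 ± 1.27 (edgeR adjusted p = 0.644) was 0.21 without control replicate 1 and 3.78 without control replicate 2. Per length, Hes1 stood above Hey1 in every library, at 75.3% and 82.2% of the sum of both in osteoarthritis and 97.8% and 80.3% in control.

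Vessel cells are a known site of several of these genes, so the levels were set beside markers of those cells. Of 12 endothelium markers, 11 were tested and 4 lay above both controls and 0 below, beside 30.0% and 26.5% of all genes tested. The summed level of the endothelium markers was 2013 and 1325 CPM in osteoarthritis and 1540 and 764.2 CPM in control. The groups thus overlapped, and no marker was at 0 in both libraries of a group. Of 10 smooth muscle and pericyte markers, 5 lay above both controls and 0 below. Their summed level was 5087 and 3013 CPM in osteoarthritis and 2535 and 1006 CPM in control, with both osteoarthritis libraries above both controls and none of these markers at 0 in both libraries of a group.

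Divided by the endothelium sum of the same library, 6 of the 10 Notch genes lay above both controls and Dll1 below both, where 10.3% of all genes tested lay above both after the same division, 32.5% below both and 57.2% overlapped. Divided by the smooth muscle and pericyte sum, 3 lay above both (Notch4, Jag1 and Dll4), 3 below both (Jag2, Dll1 and Hes1), and 4 overlapped, where 4.21% of all genes lay above both, 47.6% below both and 48.2% overlapped. On average the marker sums were themselves higher in osteoarthritis, although those of endothelium overlapped between the groups. Division therefore lowered the log2 difference of every gene alike, by 0.59 for endothelium and 1.29 for smooth muscle and pericytes. The places of Hes1, Jag2 and Dll1 below both controls arose with division, as each of these genes overlapped before it. Jag2 lay below both controls relative to the smooth muscle and pericyte sum but above both relative to the endothelium sum. There it equalled 3.04% and 2.94% in osteoarthritis and 2.72% and 1.95% in control. Jag1 equalled 6.67% and 11.3% of the endothelium sum in osteoarthritis and 1.32% and 1.35% in control, and 2.64% and 4.97% of the smooth muscle and pericyte sum in osteoarthritis against 0.80% and 1.03% in control. Its log2 difference of mean log2 CPM was 3.29 before division, 2.70 after division by the endothelium sum and 2.00 after division by the smooth muscle and pericyte sum. Dll4 equalled 2.37% and 2.97% of the endothelium sum in osteoarthritis and 0.889% and 0.703% in control. Its log2 difference was 2.34 before division, 1.75 after division by the endothelium sum and 1.04 after division by the smooth muscle and pericyte sum. Notch4 equalled 5.62% and 6.07% of the endothelium sum in osteoarthritis and 2.55% and 2.73% in control. Notch3 equalled 9.31% and 16.3% of the smooth muscle and pericyte sum in osteoarthritis and 8.47% and 17.1% in control. Its log2 difference was 0.03, against 1.33 before division. Relative to these mural cell markers the groups of Notch3 thus overlapped, as did those of Notch1 (log2 difference -0.18), Notch2 (-0.32) and Hey1 (0.62). Relative to the endothelium sum Notch3 lay above both controls, with 23.5% and 37.0% in osteoarthritis and 13.9% and 22.5% in control. The part of mural cells in the Notch3 level was not tested.

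**Figure D4:**
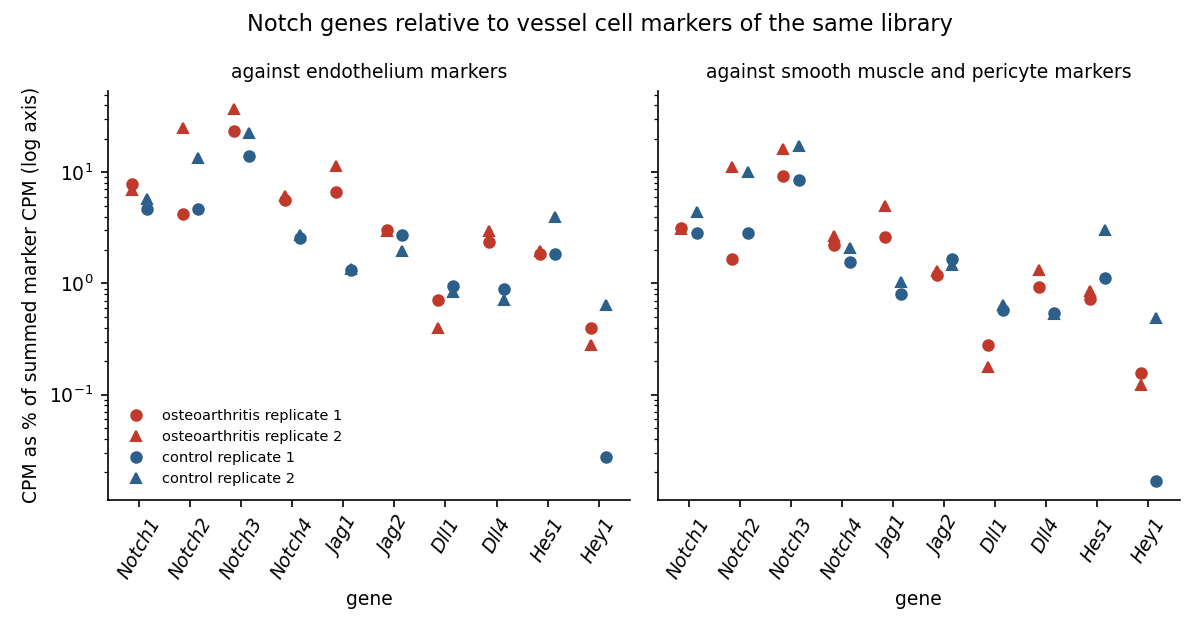
CPM of each gene as percent of the summed CPM of 12 endothelium markers (left) or 10 smooth muscle and pericyte markers (right) of the same library, on a log axis. Jag1, Dll4 and Notch4 keep both osteoarthritis libraries above both controls in both panels, while Notch3 overlaps in the right panel (9.31% and 16.3% in osteoarthritis, 8.47% and 17.1% in control). Notch1, Notch2 and Hey1 overlap there too.

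A further 50 genes of Notch signalling were examined by role, and 49 passed the filter, all but the ligand Dll3. Of these 49, 22 (44.9%) lay above both controls and 5 below both, beside 30.0% and 26.5% of all genes. The median log2 fold change was 0.52, beside 0.15 over all genes. By edgeR's quasi-likelihood test 0 passed in either direction (smallest adjusted p = 0.0985). At an unadjusted p under 0.05, 8 were higher, beside 12.2% of all genes, and 3 lower, beside 11.2%. DESeq2 called 7 higher and 2 lower, beside 7.24% and 8.26% of all genes. The edgeR likelihood ratio test called 4 higher and 1 lower, beside 6.31% and 6.40%.

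Among the other Hes, Hey and feedback targets, 4 of 8 lay above both controls and 2 below both. The shares of all genes tested were 30.0% and 26.5%. Hey2, a repressor of arterial and heart development, had 24.7 and 13.7 CPM in osteoarthritis and 3.06 and 2.88 CPM in control. Its groups were well apart, at 2.69 ± 0.56 on the log2 scale (edgeR adjusted p = 0.0985, DESeq2 adjusted p = 0.000686). Hes5, a target best known from neural progenitors, had 0.204 and 0.216 CPM in osteoarthritis and 4.47 and 1.84 CPM in control, from 6 and 5 counts in osteoarthritis and 127 and 48 counts in control. It was therefore lower in both osteoarthritis libraries, at low depth (edgeR adjusted p = 0.175, DESeq2 adjusted p = 0.0199). The values of Hey2 and Hes5 thus lay on opposite sides of their controls, and Hes1 and Hey1 overlapped with theirs.

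In the nuclear complex, 5 of 6 genes lay above both controls, beside 30.0% of all genes tested. Maml2, a Mastermind coactivator, had 36.6 and 59.3 CPM in osteoarthritis and 18.7 and 17.5 CPM in control (log2 fold change 1.41 ± 0.37, edgeR adjusted p = 0.130, DESeq2 adjusted p = 0.0322). Snw1, a splicing and transcription cofactor that joins the complex, had 26.2 and 25.4 CPM in osteoarthritis and 14.7 and 12.8 CPM in control. The sixth gene was Rbpj itself, the DNA-binding core, with 75.8 and 245 CPM in osteoarthritis and 121 and 149 CPM in control. Its osteoarthritis libraries lay on either side of the controls; it was named after its value was seen. Corepressors act on RBPJ when Notch is off and also in other pathways. Of 6 corepressors, 3 lay above both controls and 1 below both, beside 30.0% and 26.5% of all genes tested. Ncor1, a scaffold for histone deacetylases, had 308 and 198 CPM in osteoarthritis and 53.9 and 74.4 CPM in control (log2 fold change 1.98 ± 0.41, edgeR adjusted p = 0.0998, DESeq2 adjusted p = 0.000593). Kdm5a, a histone demethylase, had 199 and 121 CPM in osteoarthritis and 41.2 and 65.8 CPM in control. Both corepressors were thus apart between the groups.

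Of 9 receptor cleavage genes, 2 (22.2%) lay above both controls and 2 below both. Neither share exceeded that of all genes tested, at 30.0% above both and 26.5% below both. The 2 below were subunits of gamma-secretase. Psenen had 57.9 and 51.5 CPM in osteoarthritis and 109 and 123 CPM in control (log2 fold change -1.08 ± 0.31, edgeR adjusted p = 0.141, DESeq2 adjusted p = 0.0328). Aph1a had 61.9 and 66.4 CPM in osteoarthritis and 112 and 147 CPM in control (log2 fold change -1.01 ± 0.32, edgeR adjusted p = 0.162, DESeq2 adjusted p = 0.0608). Both subunits were lower in each osteoarthritis library than in each control. Of 9 receptor turnover genes, 6 lay above both controls, beside 30.0% of all genes tested. Nedd4, a ubiquitin ligase, had 894 and 1330 CPM in osteoarthritis and 500 and 457 CPM in control (edgeR adjusted p = 0.199, DESeq2 adjusted p = 0.0208). Dtx1, a Deltex protein that binds the receptor inside the cell, had 8.41 and 11.4 CPM in osteoarthritis and 0 and 0.882 CPM in control (edgeR adjusted p = 0.209, DESeq2 adjusted p = 0.0330). Control replicate 1 held no count of Dtx1 and control replicate 2 held 23.

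Ligand ubiquitination primes the ligand to pull on the receptor. Of its 3 genes, 2 lay above both controls, beside 30.0% of all genes tested. Mib1, a ubiquitin ligase, had 15.7 and 46.0 CPM in osteoarthritis and 11.1 and 8.98 CPM in control, and Mib2 had 38.6 and 42.9 CPM in osteoarthritis and 32.4 and 24.3 CPM in control (edgeR adjusted p = 0.197 for Mib1 and 0.391 for Mib2). None of the 5 receptor folding and glycosylation genes and none of the 3 tested other ligands was apart between the groups. Of all genes tested, 43.5% overlapped. Of the glycosylation genes, Rfng, a Fringe enzyme, had 23.4 and 34.5 CPM in osteoarthritis and 47.9 and 30.5 CPM in control, and Poglut1, an O-glucosyltransferase, had 20.4 and 39.9 CPM in osteoarthritis and 26.7 and 14.3 CPM in control. Of the other ligands, Dlk1, a non-canonical ligand of fat cell precursors, had 46.9 and 1.81 CPM in osteoarthritis and 9.01 and 23.3 CPM in control, and Dlk2 had 1.32 and 4.19 CPM in osteoarthritis and 2.11 and 0 CPM in control. The higher Dlk1 value among the osteoarthritis libraries was in replicate 1, which also had the higher adipocyte marker sum. In the controls the higher Dlk1 value was in replicate 2, whereas the higher adipocyte sum was in replicate 1 (1714 against 664.7 CPM). The part of adipose tissue in the Dlk1 values was not tested.

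**Figure D5:**
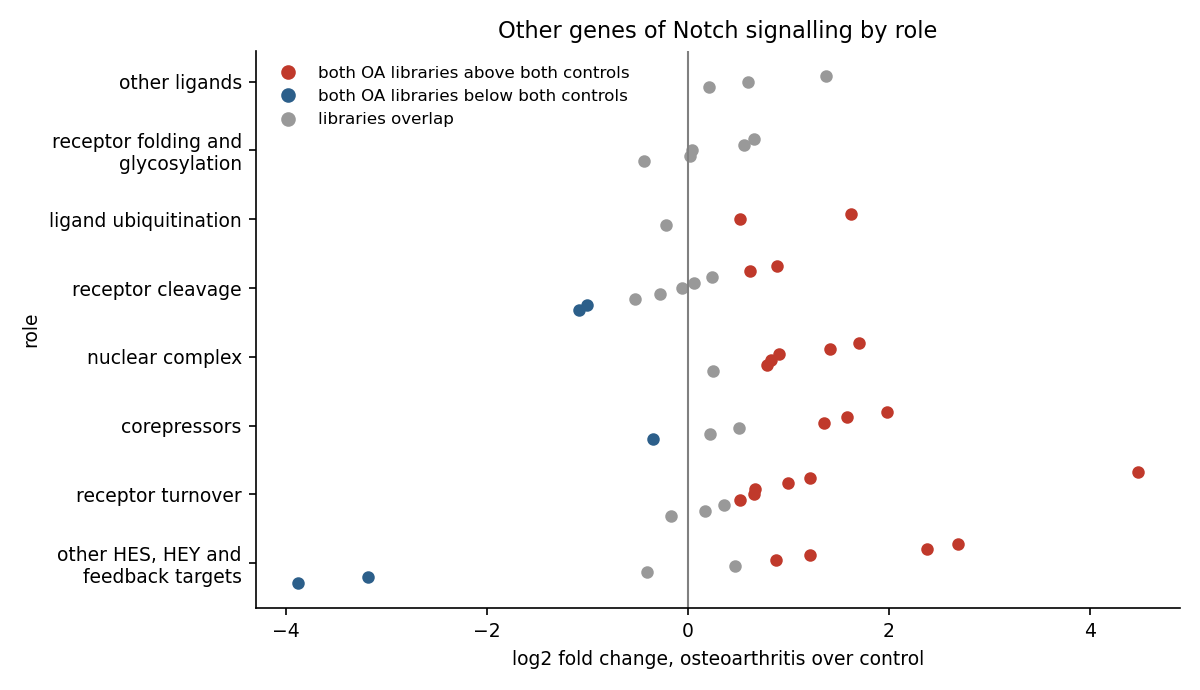
Log2 fold change, osteoarthritis over control, of the 49 other tested Notch pathway genes by role; red marks genes with both osteoarthritis libraries above both controls (22), blue those below both (5) and grey those that overlap (22). Nuclear complex genes lie right of 0, while the 2 blue points among the cleavage genes are Psenen at -1.08 and Aph1a at -1.01.

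Profiles were also compared with those of 11361 genes of at least 5 CPM on average, as the largest absolute difference in centred log2 CPM over the 4 libraries. The 3 nearest to Notch3 were Lztfl1, Ralgapa1 and Pkp4, each within 0.06. The nearest to Jag1 were the unnamed gene LOC500300 at 0.18, the row with the symbol Mir675 at 0.30 and Lamb1, a laminin chain, at 0.31. Lamb1 had 184 and 235 CPM in osteoarthritis and 31.8 and 20.8 CPM in control. The nearest to Hes1 were Snx21 at 0.04 and Acat1 and Ralb at 0.06. The 3 genes named for Jag1 were farther from it than those named for Notch3 and Hes1 were from theirs, over 4 libraries.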

How the data were processed

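Messenger RNA of 4 cartilage libraries, 2 labelled osteoarthritis and 2 healthy, was analysed. Per the submitters' processing notes, reads were handled with fastp and TopHat, and the build named is hg38, a human build, although the gene symbols are of rat style; what counted the reads, with which annotation and strand setting, is not stated there. Overlapping genes may therefore share reads. The authors deposited raw read counts per gene symbol. The authors also deposited FPKM values; each of 67506 values above 0 equalled count over length and column total within a relative difference of 1e-08, so they are no second measurement.

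Counts were fitted with edgeR 4.0.16 in R 4.3.3 (filterByExpr, TMM scaling, quasi-likelihood F test, two-sided, Benjamini-Hochberg over 15282 genes). TMM factors were 1.21 and 0.891 for osteoarthritis and 1.01 and 0.923 for control. CPM values use TMM-scaled sizes, and SE is the log2 fold change over the root of F. Alternatives were DESeq2 1.42.0, limma 3.58.1 (voom, and the trend method on log2 FPKM after adding 1 or 0.1), the likelihood ratio test of edgeR, different scalings and filters, and fits without each library, which take the lone sample to have the spread of the other group. The fits were tested on simulated data. Totals were 24492412 to 28270779 counts per library, and intervals cover counting error only. The 10 genes, the pathway and marker lists and the tests were chosen with earlier results of these data known. Pathway genes named are, for each role, the 2 with the smallest unadjusted p where none passed the threshold. Of 179 list entries all were found, 1 through a RefSeq synonym. Other marker lists were used for their sums only. Promoter stretches are from RefSeq, build GRCr8, which is not the build named in the processing notes. Python 3.11.15 with matplotlib 3.10.9 drew the figures.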

Additional observations from a re-analysis of the deposited data

How the results depend on the processing

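The median log2 fold change of the 10 Notch genes was 1.20 and lay between 0.99 and 1.45 over 14 alternatives, which differed from it by less than the spread between libraries of 0.41. Calls depended on the test: with no filter on low counts the quasi-likelihood test of edgeR gave 677 higher and 751 lower genes in osteoarthritis, with 3 of the 10 Notch genes higher, DESeq2 called 1107 and 1262, with 4 Notch genes and 7 higher and 2 lower pathway genes, and the likelihood ratio test 965 and 978, with 3 Notch genes. Without single libraries it gave 0 to 1297 higher and 0 to 1105 lower genes, 0 to 5 Notch genes higher, and 0 to 6 pathway genes higher and 0 to 2 lower, with every call from the fits without an osteoarthritis library. Of the 10 genes, 6 to 8 then lay above and 0 to 2 below the remaining controls, where fewer libraries make separation easier. The share of all genes apart in these fits was not counted, so nothing is read from those counts. Fold changes that turned sign were those of Dll1 (0.08 without TMM factors, -1.0 to 0.56 without single libraries), Hes1 (-0.21 to 0.35) and Notch2 (-0.03 to 1.90). In these cases the cause was not tested. Of 140 single-gene values, 115 kept their sign and side of the threshold, 20 passed the threshold and 5 turned sign. No paired analysis was possible because the labels give no pairing between the groups. They give no replicate numbers either, so those used here follow the order of the samples. The low counts of Hey1, Hes5 and Dtx1 limit what can be said of them.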
